A study of Mus musculus with 16 samples.

Results

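Sites bound by BMAL1 in mouse liver were examined at the genes of the enzymes that attach ubiquitin to proteins and remove it. The members were the intervals of the authors' merged peak table whose nearest gene was protein coding and had a name starting with Usp, Ube2, Fbxo, Fbxl, Fbxw, Trim, Rnf or Cul followed by a digit or letter, with Usp2 left out. There were 90 such intervals near 74 genes, which was 1.90% (95% interval 1.53 to 2.33) of the 4735 intervals with a protein-coding nearest gene and part of 7043 intervals in all. BMAL1, the partner of CLOCK in the transcription factor that drives the circadian clock, had been immunoprecipitated from C57bl6 liver, and the bound DNA sequenced. Both sexes were sampled, after a control or a misaligned treatment, at ZT0 and at ZT12, the times at which the lights of a 12:12 light:dark cycle come on and go off. Each of these 8 groups had 1 BMAL1 library, and 8 IgG libraries were not used here. All groups, controls included, were aged 8 to 16 weeks and ate a diet with 42% of calories from fat during the paradigm, and each library was made from liver pooled from 3 to 4 mice. The misalignment schedule is not given in the sources used here.

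Ubiquitin is passed to a target protein along a chain of enzymes: an activating enzyme loads it, a conjugating enzyme (the Ube2 genes) carries it, and a ligase chooses the target. Cullins (Cul) are scaffolds of the largest class of ligases, in which F-box proteins (Fbxo, Fbxl, Fbxw) recognise the target for the Cul1 complex, while many RING finger (Rnf) and tripartite motif (Trim) proteins bind both conjugating enzyme and target themselves. Ubiquitin-specific proteases (Usp) remove the tag, and the proteasome destroys many of the proteins that carry it. In the clock this pathway is best known for setting the lifetime of the PER and CRY proteins. The names select by family and not by activity: Ube2f carries NEDD8, a relative of ubiquitin, and Ube2v2 lacks the catalytic cysteine.

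The authors' lists held 141 to 373 peaks in the 4 control libraries, and, in the misaligned libraries, 1864 in males at ZT0, 5542 in males at ZT12, 1330 in females at ZT0 and 221 in females at ZT12. Read depth is unknown. With 1 library a group, a difference between libraries had no replicate check and no test was made. Sequencing depth, pull-down and treatment cannot be told apart in the number of peaks, so each count of members is set beside the same count over all 4735 intervals with a protein-coding nearest gene. An interval not called in a library had no peak past the authors' threshold there, which does not show that BMAL1 was absent. As a check of the pull-down, 11 of 11 core clock targets had an interval called in every library, while 0 to 3 of 6 abundant hepatocyte genes and 0 to 1 of 15 genes of other liver cells had one. Ranges given with a share are 95% Clopper-Pearson intervals. They hold counting error alone, because peaks are not replicates.

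The promoters of the 3 genes whose interval lay within 1 kb of the start in 4 or more libraries and had a RefSeq promoter entry are shown first, because these were the sites at which BMAL1 was most often found close to a start. They are the 250 bases before the RefSeq start on GRCm38.p6, 5′ to 3′ on the gene's strand, and capitals mark the E-box CACGTG, the motif that CLOCK and BMAL1 are known to bind. Usp28 lies at chr9:48985135-48985384 on the plus strand, Ube2q1 at chr3:89773359-89773608 on the plus strand, and Usp36 at chr11:118290245-118290494 on the minus strand.
Usp28: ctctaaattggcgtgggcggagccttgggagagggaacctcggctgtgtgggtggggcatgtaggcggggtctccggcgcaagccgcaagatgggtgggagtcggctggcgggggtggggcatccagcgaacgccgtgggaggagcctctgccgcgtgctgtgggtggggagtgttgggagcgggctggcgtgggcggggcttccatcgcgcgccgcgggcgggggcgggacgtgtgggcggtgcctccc
Ube2q1: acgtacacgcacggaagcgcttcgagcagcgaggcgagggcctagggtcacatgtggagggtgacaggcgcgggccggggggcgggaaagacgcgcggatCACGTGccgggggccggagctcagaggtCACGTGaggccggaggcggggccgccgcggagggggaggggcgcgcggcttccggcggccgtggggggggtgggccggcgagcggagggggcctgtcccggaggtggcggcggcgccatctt
Usp36: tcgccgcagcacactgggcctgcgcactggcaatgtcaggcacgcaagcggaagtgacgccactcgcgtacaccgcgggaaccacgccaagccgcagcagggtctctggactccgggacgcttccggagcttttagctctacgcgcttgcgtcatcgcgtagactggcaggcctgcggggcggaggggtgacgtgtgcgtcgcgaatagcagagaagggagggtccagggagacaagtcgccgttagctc
The Ube2q1 promoter held 2 E-boxes, starting at positions -150 and -122, where positions are counted from 1 at the first base of the gene and are negative before it. The summits of its 4 peaks lay upstream of both, between -328 and -270. The Usp28 promoter held no E-box in the 300 bases searched, from 250 before the start to 50 after it. Its 7 summits were spread between -350 and -111, and 4 of them lay upstream of that window. The Usp36 promoter held no E-box, but a variant that differs from it by 1 base (CACGTT on one strand, AACGTG on the other) lay at positions 15 to 20, with the 4 summits between 45 and 77.

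The 7 other member genes with an E-box or the variant in a promoter window that overlapped their own interval are shown with the Usp36 site, to let the bases around the motif be compared. Each line gives the motif in capitals between 10 bases on either side, on the gene's strand. The motif lies at chr11:118290225-118290230 for Usp36 (minus strand), chr11:44518726-44518731 for Rnf145 (plus), chr9:53667483-53667488 for Cul5 (minus), chr1:80340895-80340900 for Cul3 (minus), chr13:54687877-54687882 for Rnf44 (minus), chr16:87454908-87454913 for Usp16 (plus), chr11:85139953-85139958 for Usp32 (minus) and chr9:86464881-86464886 for Ube2cbp (minus).
Usp36: tcttaaggcgAACGTGcccttcacgc
Rnf145: tgagcgcgaaCACGTGtcagaatggc
Cul5: cccgccgcgtCACGTGacgccgccac
Cul3: ccctccccacCACGTTcagaccccac
Rnf44: acccgctagtCACGTGccgcccgcag
Usp16: ctgcagtgaaCACGTGgcgggcctcc
Usp32: gggagcgggtCACGTGactcggcatg
Ube2cbp: gctacggccgCACGTGctcccaccct
The summit lay 7.5 bp from the centre of the motif in Cul5 and 14.5 bp in Cul3. It was 54.5 bp away in Usp16, 72.5 bp in Rnf44, 79.5 bp in Rnf145, 210.5 bp in Usp32 and 221.5 bp in Ube2cbp. In Usp32 and Ube2cbp the motif lay across the edge of the interval, with part of its bases outside. In Usp36 the variant lay 27.5 to 59.5 bp from the 4 summits. The motif was thus closest to the summit in Cul5 and Cul3, each with 1 peak. The Cul3 motif is the variant, and its peak was weak (-log10 q 1.73).

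Here a window counts as under an interval if the 2 overlap, so a motif in the window can lie outside the interval. Among the 28 promoter windows of 25 member genes that lay under the gene's own interval, 7 held CACGTG (25%, 10.7 to 44.9) and 2 held the variant. The same motif was found in 23.5% of 2008 windows of coding genes under any interval, in 6.20% of those under none, and in 7.84% of all 21262. Windows of genes of the same families under no interval held it in 5.30% (15 of 283). With windows under any interval counted, as in the 23.5%, it was held by 10 of 45 windows of these families (22.2%, 11.2 to 37.1). The windows of these families thus held the E-box about as often as all coding promoters under an interval, themselves included, within a wide counting interval. In all coding genes the share was 30.4% where the interval was called in 2 or more libraries and 36.8% where it was called in 4 or more. RefSeq promoter entries were found for 54 of the 74 member genes. A match is a description of the letters in the window and not of a binding site.

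**Figure D1:**
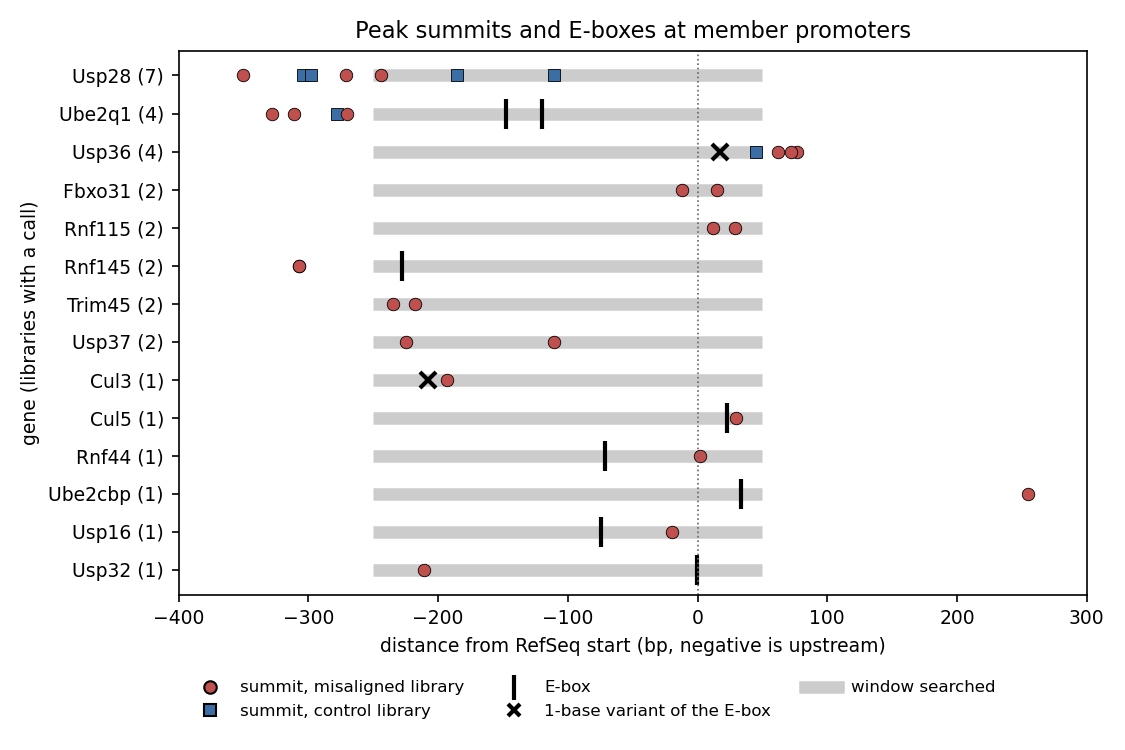
Distance in bp from the RefSeq start (x axis, negative is upstream) of each peak summit (circles, misaligned libraries; squares, control libraries), each E-box (bars) and each variant (crosses), for the 14 member genes with a motif there or with calls in 2 or more libraries (number of libraries in brackets); the grey band is the window searched. The summits of Usp28 lie between -350 and -111 in a promoter without the motif, those of Ube2q1 upstream of both its E-boxes, and those of Usp36 downstream of its variant.

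The interval nearest Fbxl22, an F-box protein with leucine-rich repeats, was the member called in all 8 libraries, and the one nearest Usp28, a protease known for stabilising MYC, was called in 7. The Fbxl22 interval (chr9:66511460-66512409) lay in an exon 2659 bp downstream of the start. Its summit held 73 fragments in the control and 84 in the misaligned library of males at ZT0, 63 and 167 in males at ZT12, 40 and 139 in females at ZT0, and 70 and 125 in females at ZT12. In the same order, the authors' fold enrichment over local background was 8.21 and 11.9, 6.32 and 11.1, 5.36 and 12.6, and 4.05 and 8.91. In each of the 4 pairs of the same sex and time, fold and fragments were higher in the misaligned than in the control library. Fold and fragments depend on depth and background, which differ between libraries, so ranks within a list are given as well. By -log10 q the peak ranked 29 of 373 and 31 of 1864, 75 of 290 and 39 of 5542, 25 of 225 and 15 of 1330, and 47 of 141 and 15 of 221. It was the strongest member peak in every library, with -log10 q between 12.9 and 109.6. Usp3, a protease that acts on histones, and the ligase gene Herc1 also lay within 10 kb of it, so the nearest-gene label is 1 of several that could be given.

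The Usp28 interval (chr9:48984535-48985466) lay 385 bp upstream of the start. Its summit held 64 fragments in the control and 54 in the misaligned library of males at ZT0, 40 and 76 in males at ZT12, and 29 and 52 in females at ZT0. In females at ZT12 it held 27 in the control library, and no peak was called in the misaligned one. Fold enrichment was 9.07 and 8.01, 5.20 and 7.54, 3.77 and 6.49, and 2.85 in that order. Unlike the Fbxl22 peak, it was not higher in the misaligned library of every pair: in males at ZT0 the control library had the higher fold. The peak ranked 33 of 373 in male control ZT0 and 133 of 141 in female control ZT12, where it was among the weakest of the list. A second interval 1360 bp upstream was called in male misaligned ZT0 alone.

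**Figure D2:**
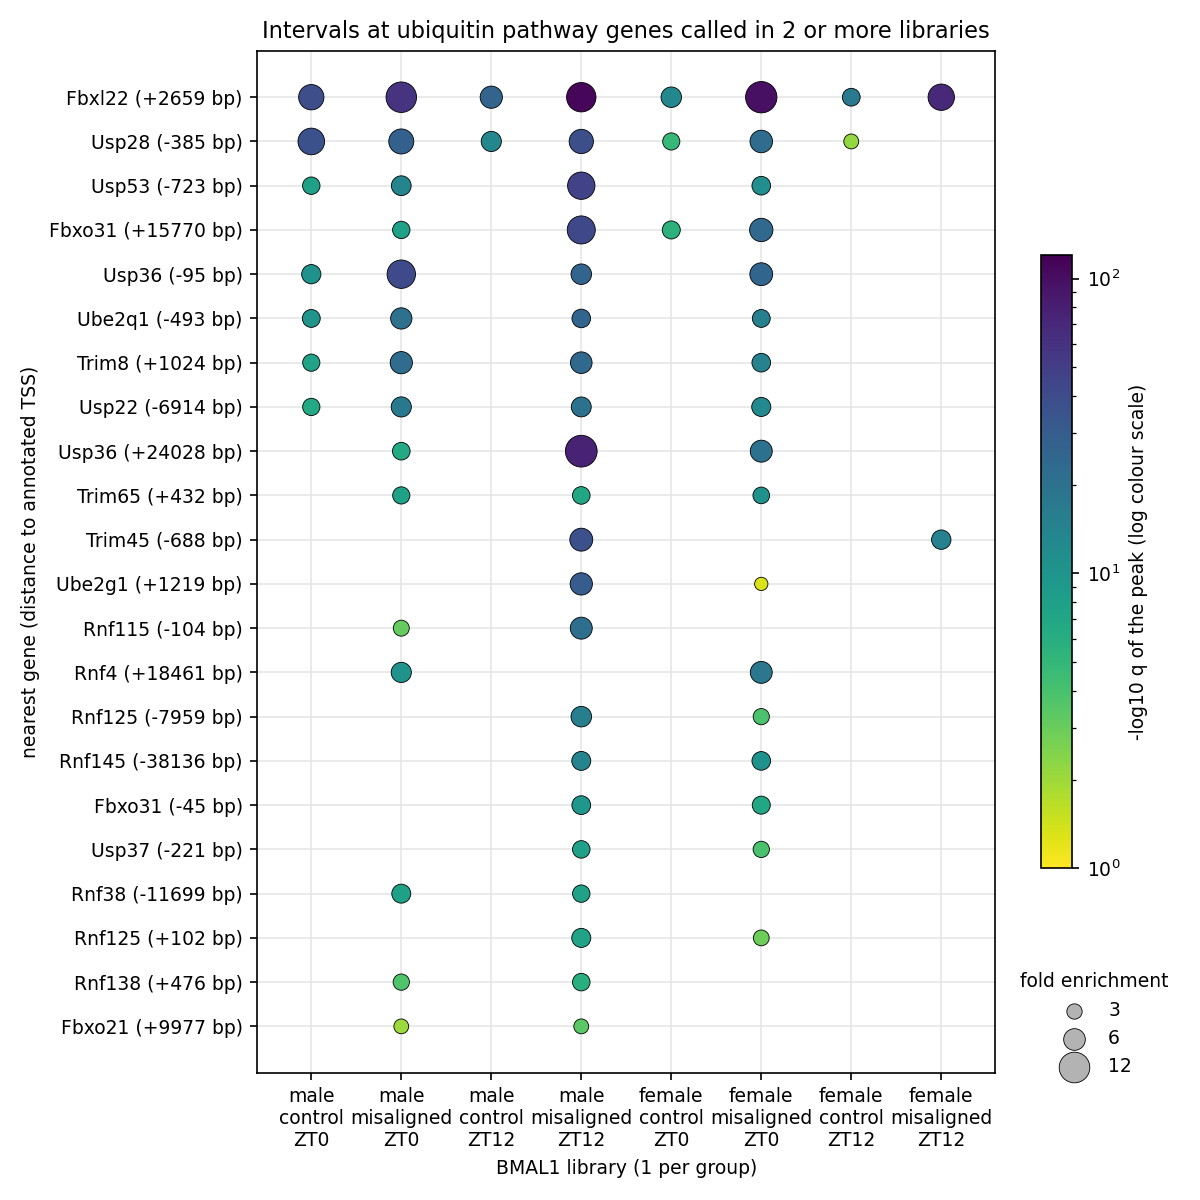
Intervals called in 2 or more libraries, with distance to the authors' start site (y axis, 22 intervals) in the 8 BMAL1 libraries (x axis); point size is fold enrichment and colour is -log10 q on a log colour scale, and an empty place means no call. Fbxl22 has a point in every column and Usp28 in 7, while most other points stand in the columns of the 3 longest lists, those of misaligned males at both times and misaligned females at ZT0.

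In all, 8 of the 90 members were called in 4 or more libraries (8.89%, 3.92 to 16.8), against 5.15% of intervals with a protein-coding nearest gene. Of these 8, 4 were at Usp genes and 2 at F-box genes, families with 13 and 16 of the 90 members. The 6 called in exactly 4 libraries were at Usp53, Fbxo31, Usp36, Ube2q1, Trim8 and Usp22. All but Fbxo31 had calls in the same set, made up of the male control library of ZT0 and the misaligned libraries of males at both times and of females at ZT0. Below, values over this set are given in that order, with males at ZT0 before males at ZT12. That set held 5 of 6 members called in exactly 4 libraries (83.3%) and 56 of 103 such intervals near any coding gene (54.4%).

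Usp53, a family member found at tight junctions and known from inherited cholestasis, had its interval (chr3:122984148-122985084) 723 bp upstream of the start. Its summits held 37, 43, 77 and 41 fragments. The male misaligned ZT12 peak stood apart, with fold 9.58 against 3.89 to 4.99 in the other 3.

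Usp36, a nucleolar protease, had 2 intervals. The one 95 bp upstream of the start (chr11:118289885-118290450), shown above with its variant motif, held 37, 64, 72 and 58 fragments, with fold 4.74, 10.3, 5.39 and 6.67. The other (chr11:118265516-118266572), 24028 bp downstream and classed at a start site of the same gene, held 30, 104 and 49 fragments in the misaligned libraries of that set and was not called in the control, with fold 3.99, 12.9 and 6.19. The order of the 2 sites differed between lists: by fold the upstream site was the stronger in male misaligned ZT0 and female misaligned ZT0, and the downstream site in male misaligned ZT12.

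Usp22, which removes ubiquitin from histones in the SAGA coactivator, had an interval (chr11:61174818-61175561) 6914 bp upstream of the start used by the authors and classed as a promoter. It held 33, 51, 58 and 43 fragments. Trim8, a ligase known from cytokine signalling, had an interval (chr19:46502220-46503124) in an exon 1024 bp downstream, with 37, 54, 60 and 51 fragments. Ube2q1, a conjugating enzyme, had an interval (chr3:89773122-89773613) 493 bp upstream, over the promoter shown above, with 42, 53, 88 and 60 fragments. In these 3 genes fold lay between 3.79 for Trim8 in male control ZT0 and 6.33 for Trim8 in male misaligned ZT0. Each held most fragments in male misaligned ZT12, but fold was highest in male misaligned ZT0. There it was 5.19 for Usp22, 6.33 for Trim8 and 5.81 for Ube2q1, against 5.07, 5.97 and 4.42 in male misaligned ZT12. Fbxo31, an F-box protein that directs cyclin D1 to degradation, had an intronic interval (chr8:121562298-121563742) 15770 bp downstream of the start. It was the only one of the 6 called in female control ZT0, with 28 fragments, beside 36, 67 and 53 in the 3 misaligned libraries. A second Fbxo31 interval, 45 bp upstream of the start, was called in male misaligned ZT12 and female misaligned ZT0.

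The families differed in how many of their genes had an interval, and the small families carry wide counting intervals. Of 334 RefSeq protein-coding genes of these names, 74 were the nearest gene of an interval (22.2%, 17.8 to 27.0), against 16.3% of all 21896 protein-coding genes. Within 10 kb of the start the numbers were 55 (16.5%) against 11.6%. All 74 member genes were matched to a RefSeq gene, but only 3565 of the 3687 coding nearest genes were. The shares of all coding genes may therefore be low. The share was 27.0% (13.8 to 44.1) of 37 Ube2 genes, 50% (15.7 to 84.3) of 8 Cul genes, 17.9% (10.2 to 28.3) of 78 F-box genes, 29.4% (20 to 40.3) of 85 Rnf genes, 15.7% (8.11 to 26.4) of 70 Trim genes and 17.9% (8.91 to 30.4) of 56 Usp genes. The counting intervals of these shares overlap one another. Those of all 334 genes and of the Rnf genes lay above the 16.3%, and those of the other families held it. The Usp genes, with a share close to that of all coding genes, had 13 intervals. Of these, 6 were among the 22 member intervals called in 2 or more libraries and 4 among the 8 called in 4 or more. The 34 intervals at Rnf genes held 7 of the 22 and none of the 8. Among all coding intervals, 23.2% were called in 2 or more libraries and 5.15% in 4 or more. The difference between families was not tested.

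Of 11 intervals at Ube2 genes, 2 were called in 2 or more libraries, as were 23.2% of all coding intervals. Besides Ube2q1 this was Ube2g1, whose product works with Cul4 ligases. Its intronic interval (chr11:72608284-72608720), 1219 bp downstream of the start, held 69 fragments in male misaligned ZT12 (fold 6.34) and 28 in female misaligned ZT0 (fold 2.26, -log10 q 1.32, one of the weakest member peaks). The third strongest was at Ube2q2 (chr9:55148959-55149363), called in female misaligned ZT0 alone with 33 fragments. Of the other conjugating enzyme genes, Ube2q1, Ube2n (38 fragments), which builds chains that signal rather than destroy, Ube2w (28) and Ube2f (23) had an interval in female misaligned ZT0. In all, 6 Ube2 intervals were called in that library, 5 in male misaligned ZT12 and 3 in male misaligned ZT0, and 1, Ube2q1, in male control ZT0. In the same order, those libraries held 20.4%, 78.8%, 27.3% and 5.72% of all coding intervals.

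Cul1, Cul3, Cul4b and Cul5 each had 1 interval, and each was called in male misaligned ZT12 alone, as were 56.8% of all coding intervals. Cul5, the scaffold of ligases with SOCS box receptors, had the strongest (chr9:53667226-53667685), 52 bp from the start over the E-box shown above, with 42 fragments and fold 5.69. Cul1, the scaffold of the F-box ligases, had 19 fragments at a site 84414 bp upstream (chr6:47369011-47369314). The Cul4b peak (chrX:38564575-38564854, 52 bp upstream) also held 19 fragments, and the Cul3 peak (chr1:80340775-80341210) held 26, with -log10 q 1.86 and 1.73. The last 2 were weak: they fall out where -log10 q of at least 3 is asked for.

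Of 16 intervals at F-box genes, 4 were called in 2 or more libraries (as were 23.2% of all coding intervals), namely Fbxl22, both of Fbxo31 and Fbxo21. The third strongest F-box gene was Fbxo3, with an interval (chr2:104027604-104027938) 77 bp upstream of the start that held 71 fragments in male misaligned ZT12, fold 4.00. The other F-box peaks held 17 to 32 fragments at their summits. They included the promoters of Fbxl4, a mitochondrial protein, and Fbxo25, and an exon of Fbxo2, which recognises sugar chains on misfolded glycoproteins.

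The Rnf genes had 34 intervals near 25 genes, the most of any family, of which 25 were called in male misaligned ZT12, 9 in male misaligned ZT0, 5 in female misaligned ZT0 and 2 in female control ZT0. Those libraries held 78.8%, 27.3%, 20.4% and 3.21% of all coding intervals. Rnf13, a ligase of endosomal membranes, had the strongest (chr3:57735368-57736039), 417 bp upstream of the start, with 63 fragments and fold 7.68 in male misaligned ZT12 alone. Rnf115 (chr3:96727484-96727987, 104 bp upstream) held 22 fragments in male misaligned ZT0 and 51 in male misaligned ZT12. Rnf4, which adds ubiquitin to proteins carrying SUMO chains, was the nearest gene of an interval (chr5:34369282-34369872) with 31 fragments in male misaligned ZT0 and 44 in female misaligned ZT0, the one member found in both ZT0 misaligned libraries and not in male misaligned ZT12. That interval was classed at a start site of another gene, Fam193a, and lay more than 10 kb from the Rnf4 gene body, so its label is by nearest start alone.

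Several Rnf genes had clusters of intervals. Rnf125, a ligase that restrains RIG-I signalling, had 4, from 13238 bp upstream to 1086 bp downstream of the start, all called in male misaligned ZT12 and 2 of them also in female misaligned ZT0. Rnf144b had 3 within its introns by the authors' annotation, in males only. In all, 13 genes had 2 or more intervals, 29 intervals together, and 61 genes had 1. The same count was not made over all coding genes, whose 4735 intervals lay near 3687 genes. These numbers therefore do not show whether such clusters are more common among members. Rnf43, which removes Wnt receptors from the cell surface, had 2 in male misaligned ZT12, and Rnf139, a sterol-sensing ligase of the endoplasmic reticulum, also 2 there. Rnf145, another sterol-regulated ligase of that membrane, had an interval (chr11:44518521-44518870) with 46 fragments in male misaligned ZT12 and 39 in female misaligned ZT0, and its summit was at position -307 in both. The authors' distance for it is 38136 bp because their start site is another one than that of RefSeq. The same held for Ube2q2, at 45684 bp by the authors and with its summit at -215 from a RefSeq start, and for Fbxo11, at 57446 bp and with its summit at 10.

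Of 12 intervals at Trim genes, 3 were called in 2 or more libraries (as were 23.2% of all coding intervals): Trim8, Trim65 and Trim45. Trim45 had the strongest (chr3:100921982-100922467), 688 bp upstream of the start, with 82 fragments in male misaligned ZT12 and 49 in female misaligned ZT12. It was called in both misaligned libraries of ZT12 and in no library of ZT0, and no other member had that pattern. Trim65, a ligase of the MDA5 pathway, had an exonic interval (chr11:116130423-116130969) with 37 and 29 fragments in misaligned males at ZT0 and ZT12 and 52 in misaligned females at ZT0. Its fold was 3.79, 3.97 and 3.55 in that order, so it was lowest where the fragments were most. Trim11 (chr11:58979456-58979995) held 42 fragments in male misaligned ZT12 alone. The remaining Usp genes with an interval were Usp12, Usp16, Usp32, Usp34, Usp37 and Usp42, with 19 to 34 fragments.

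By library, 7 of the 90 members were called in male control ZT0 (7.78%, against 5.72% of all intervals with a protein-coding nearest gene), 28 in male misaligned ZT0 (31.1%, against 27.3%), 2 in male control ZT12 (2.22%, against 4.05%) and 63 in male misaligned ZT12 (70.0%, against 78.8%). In females 5 were called in control ZT0 (5.56%, against 3.21%), 27 in misaligned ZT0 (30.0%, against 20.4%), 3 in control ZT12 (3.33%, against 2.03%) and 2 in misaligned ZT12 (2.22%, against 3.25%). The counting interval of the members held the background in 7 of the 8 libraries. The exception was female misaligned ZT0, where the interval was 20.8 to 40.6. Turned round, members made up 1.04% to 3.29% of the coding intervals called in a library, with wide counting intervals in the short lists.

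**Figure D3:**
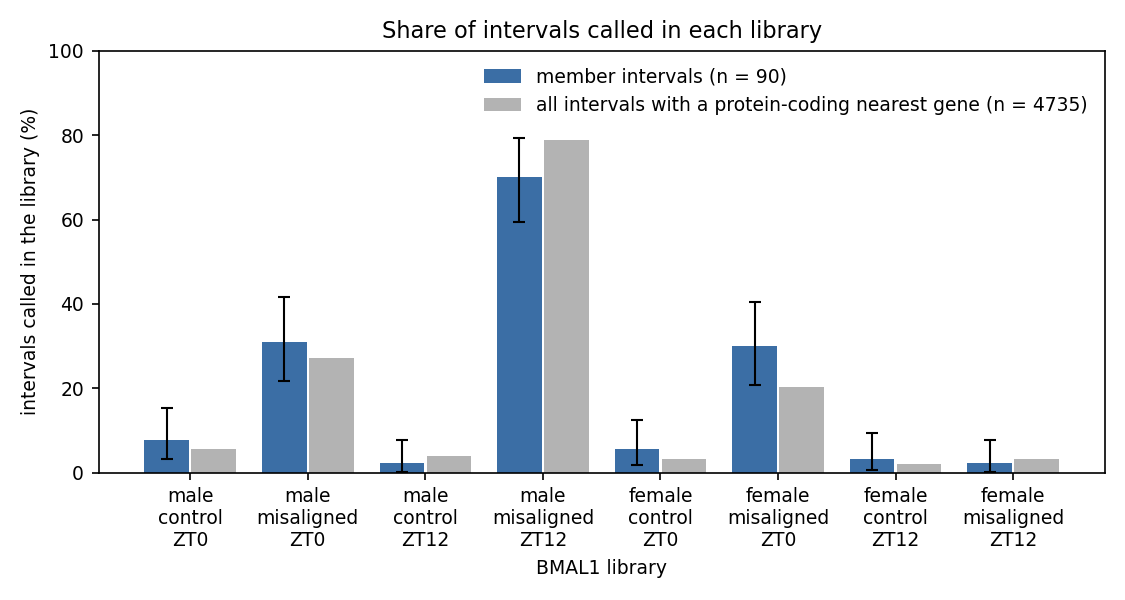
Percent of the 90 member intervals (blue) and of all 4735 intervals with a protein-coding nearest gene (grey) called in each of the 8 BMAL1 libraries; error bars are exact 95% binomial intervals and cover counting error only. Both follow the length of the lists, from 70.0% and 78.8% in male misaligned ZT12 to 2.22% and 3.25% in female misaligned ZT12.

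Most members were called in a misaligned library and not in the control library of the same sex and time, and so were most intervals of any kind. In males at ZT0 the number was 21 (23.3%, 15.1 to 33.4) against 23.1% of coding intervals, and in males at ZT12 it was 61 (67.8%, 57.1 to 77.2) against 75.5%. In females at ZT0 it was 24 (26.7%, 17.9 to 37.0) against 19.1%, and at ZT12 it was 1, Trim45 (1.11%, against 2.18%). The reverse, a call in control and not in misaligned, was seen for 0 members in males at ZT0 (up to 4.02%, against 1.52%) and 0 at ZT12 (up to 4.02%, against 0.697%). In females it was seen for 2 at ZT0 (2.22%, against 1.94%) and 2 at ZT12 (2.22%, against 0.95%). The counting interval of the members held the background share in all 8 of these comparisons. With all 7043 intervals as background, females at ZT0 were an exception, since 17.6% of those were called in misaligned and not in control.

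The 2 female control ZT0 sites were at Rnf169, which reads ubiquitin at DNA breaks (chr7:99917137-99917506, 20 fragments, -log10 q 2.56), and Rnf185, a ligase of endoplasmic reticulum quality control (chr11:3426304-3426589, 23 fragments, -log10 q 3.30). Both were weak and more than 10 kb from the authors' start, the former in an intron of another gene and the latter in an intron of Rnf185. The 2 female control ZT12 sites were the Usp28 promoter, described above, and an intron of Usp12 (chr5:146764295-146764564, 26 fragments, -log10 q 3.84). Members called in both libraries of a pair numbered 7 in males at ZT0 (7.78%, against 4.20% of coding intervals), at Fbxl22, Trim8, Ube2q1, Usp22, Usp28, Usp36 and Usp53. They numbered 2 in males at ZT12 (2.22%, against 3.36%), at Fbxl22 and Usp28, 3 in females at ZT0 (3.33%, against 1.27%), at Fbxl22, Fbxo31 and Usp28, and 1 in females at ZT12 (1.11%, against 1.08%), at Fbxl22.

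Over all 8 libraries 79 members were called in misaligned libraries only (87.8%, against 89.8% of coding intervals), 3 in control libraries only (3.33%, against 2.41%) and 8 in both (8.89%, against 7.79%). Most calls were in a single library: 68 members (75.6%, against 76.8%), of which 42 were in male misaligned ZT12 (46.7% of members, against 56.8%), 13 in male misaligned ZT0 (14.4%, against 11.3%), 10 in female misaligned ZT0 (11.1%, against 5.81%) and 3 in a control library (3.33%, against 2.39%). Calls in male libraries only were made for 59 members (65.6%, against 76.5%) and in female libraries only for 13 (14.4%, against 7.92%). These 13 were led by Ube2q2, Ube2n and Ube2w. Each sex and time had 1 library per treatment, so sex cannot be told apart from the library.

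The rank of member peaks within their own list differed between lists. The median percentile of member peaks by -log10 q was 65.5 in male misaligned ZT0, 54.7 in male misaligned ZT12 and 66.6 in female misaligned ZT0, where peaks near any coding gene had medians of 51.6, 51.5 and 51.9. Median fold enrichment in these lists was 3.93, 3.93 and 4.16 for members and 3.74, 3.71 and 3.96 for peaks of all coding intervals. In the other lists the medians rest on 2 to 7 member peaks. Their median percentile was 44.9 in male control ZT0, 63.8 in male control ZT12, 67.8 in female control ZT0, 14.5 in female control ZT12 and 77.6 in female misaligned ZT12, where peaks near any coding gene had 49.9, 51.6, 53.1, 53.2 and 51.8. Members thus ranked below the background in male control ZT0, where their median fold was 4.09 against 4.61, and in female control ZT12. None of the 90 members had a peak with a local background of at least 5 times the lowest of its list, against 38 of 4735 (0.803%).

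Members lay somewhat nearer to start sites than other intervals. The median distance was 1974 bp against 4564 bp, and 40 were within 1 kb (44.4%, 34.0 to 55.3) against 35.6% of coding intervals. The counting interval of the members held that background, but not the 28.7% of all 7043 intervals, which include those near noncoding genes. By the authors' classes 44 were at a promoter (48.9%, against 39.7%), 27 in an intron (30.0%, against 31.5%), 7 in an exon, 1 at a transcript end and 11 between genes (12.2%, against 20%). The class was in the member's own gene for 67 intervals and in another gene for 12. Of the 40 within 1 kb, 11 were called in 2 or more libraries (27.5%, against 30.9% of coding intervals that near), and of the 50 beyond it 11 were (22%, against 19%).

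**Figure D4:**
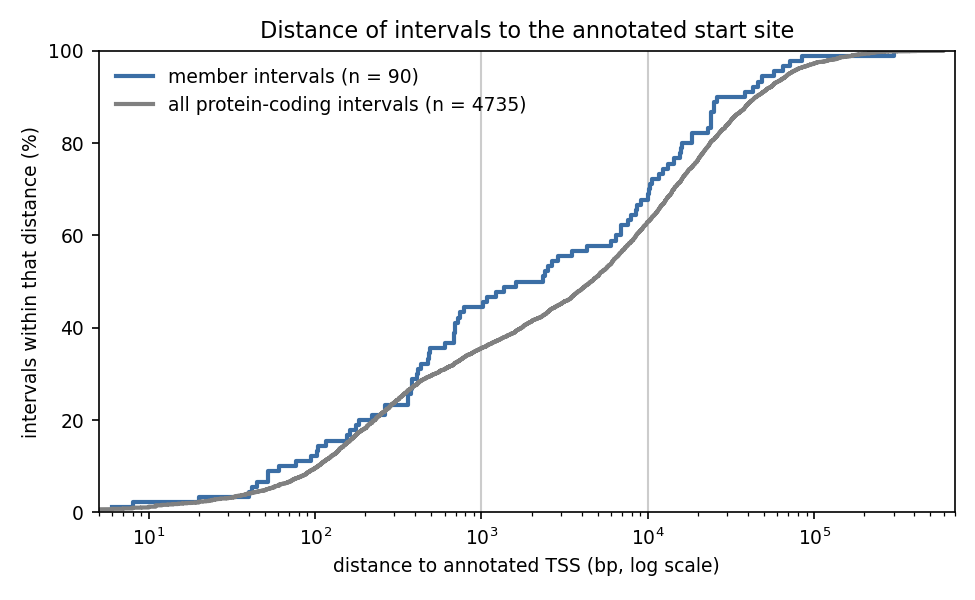
Cumulative percent of intervals (y axis) within a given distance in bp of the authors' start site (x axis, log scale) for the 90 members (blue) and all 4735 intervals with a protein-coding nearest gene (grey); vertical lines mark 1 kb and 10 kb. The curves run close together at short distances, and the members are higher farther out, with 44.4% against 35.6% at 1 kb and 68.9% against 62.9% at 10 kb.

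Chromosome 11 held 20 of the 90 members (22.2%, 14.1 to 32.2) against 8.45% of coding intervals. It also carries 39 of the 334 genes of these names (11.7%), against 7.35% of all coding genes, and 16 of those 39 had an interval (41.0%). They include Usp36, Usp22, Ube2g1, Trim65, Rnf145 and Trim11. On chromosome 9, which carries 38 of the 334 genes and the Fbxl22 and Usp28 sites, 7 had an interval (18.4%). How many of all coding genes on each chromosome had an interval was not counted, so these shares have no background. The choice of these chromosomes was not set beforehand, and no difference between them was tested.

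Of the enzymes known to act on clock proteins, Fbxl21, an F-box protein of CRY, Fbxw11, an F-box protein of PER, and Fbxw7, Usp7, Usp9x, Usp14 and Ube2o were the nearest gene of no interval. Of 15 such genes of any family, among which Usp2 was not counted, 2 had one (13.3%, 1.66 to 40.5, against 16.3% of coding genes): Ddb1, an adaptor of Cul4 ligases, in 3 misaligned libraries, and Stub1 in female misaligned ZT0.

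Other genes of the pathway were set beside the 16.3% of all coding genes that were the nearest gene of an interval. Intervals were nearest to 9 of 31 HECT and N-recognin ligases (29%, 14.2 to 48.0), 8 of 40 partners of cullin ligases (20%, 9.05 to 35.6) and 11 of 43 other RING or U-box ligases (25.6%, 13.5 to 41.2). The numbers were 5 of 30 for other deubiquitinases (16.7%, 5.64 to 34.7) and 9 of 46 for the proteasome and its helpers (19.6%, 9.36 to 33.9). Each counting interval held the 16.3%. Within 10 kb of the start the shares were 16.1%, 15%, 18.6%, 13.3% and 15.2% in that order, against 11.6% of all coding genes. As among the members, most were called in male misaligned ZT12, which held 78.8% of all coding intervals. Cops7a, a subunit of the signalosome that removes NEDD8 from cullins, had a site in both male misaligned ZT0 and ZT12, with -log10 q up to 33.7. Mgrn1, a ligase of the cytosol, had a site in male control ZT0 and male misaligned ZT12, with -log10 q up to 43.5. No interval of these lists was called in female control ZT12, female misaligned ZT12 or male control ZT12. Those short lists held only 2.03%, 3.25% and 4.05% of all coding intervals, so few calls could have been found there.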

How the data were processed

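BMAL1 chromatin immunoprecipitation libraries from 8 groups were used, 1 a group. Per the submitters' processing notes, reads were processed with BWA 0.7.17-r1188 and MACS2 2.2.7.1 on GRCm38; the q threshold and any use of IgG as control are not given in the sources used here. The deposited peak lists give fold enrichment as a ratio and −log10 p-values and q-values. A deposited table merges the 9986 peaks into 7043 intervals that record for each library whether it was called, a nearest gene and a distance to its start; its calls were checked against the lists. Whole summit fragments and local background were recovered from fold and −log10 p (relative tolerance 0.0001) for 99.7% to 100% of each list's peaks, with Python 3.11.15, scipy 1.17.1 and pandas 2.3.3, after a test on simulated data. Promoters and gene counts came from RefSeq on GRCm38.p6. Members, gene lists and the rule for named genes (intervals in 4 or more libraries, the 3 strongest per family and per library, the 3 genes with most intervals, sites in control and not misaligned) were chosen with earlier results of these data known; Fam193a, Cops7a, Mgrn1, Rnf145, Trim65 and other genes outside the rule were named after their values were seen. Some genes of these lists are not reported here.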

Additional observations from a re-analysis of the deposited data

How the results depend on the processing

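Of 84 alternative values for 20 results, 79 stayed within the counting interval of the main value, among them all 18 with -log10 q of at least 3. All 18 on chromosomes 1 to 19, X and Y did too, as did all 8 without peaks of high local background. Those settings removed no member and could change only the background, so they are no check of the members. The counting intervals are also wide: the member share of female control ZT0 went from 3.29% to 1.83% within 10 kb of the start and still counted as unmoved. Taking all 7043 intervals as background lowered the share of members in male misaligned ZT12 from 1.69% to 1.14%. Within 10 kb of the start, members called in female control ZT0 and not in misaligned numbered 0, which gives 0% in place of 2.22%. With a window of 5 kb in place of 1 kb, 57.8% of members were near a start, against 51.2% of coding intervals. Counting any RefSeq gene of these names within 10 kb in place of the nearest gene gave 169 intervals and 124 genes, of which 70 were members. Without the intervals called in male misaligned ZT12 alone, 47.9% of 48 members lay within 1 kb against 43.5%, and 16.7% were called in 4 or more libraries against 11.9%. No paired analysis was possible because the groups share only replicate number 1 and the values come from no test; libraries of the same sex and time are set side by side. Read depth is unknown, so a site not called in the short lists may be under their threshold.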

Other observations

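Genes of these families also lay beside sites that carry another gene's name. An interval called in 7 libraries (chr10:11280675-11281341, -log10 q up to 80.2) had a noncoding RNA as nearest gene and Fbxo30, an F-box protein known from muscle wasting, within 10 kb. Trim37 lay within 10 kb of an interval called in 5 libraries (chr11:87126802-87127436, -log10 q up to 33.6) that was named for an antisense RNA. Usp4 lay within 10 kb of another called in 5 libraries (chr9:108347443-108348455, -log10 q up to 50.4), whose nearest gene was Gpx1, an enzyme that removes hydrogen peroxide. These 3 sites were outside the 90 members and were chosen after their values were seen. Conversely, 32 of the 90 members had another coding gene within 10 kb, and 83 lay inside or within 10 kb of their own gene body, 62 of them inside it.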
